A study of Homo sapiens with 27 samples.

Results

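The shRNAs described here are those that were abundant in all 3 head and neck squamous cell carcinoma (HNSCC) cell lines of a pooled kinome screen. An shRNA was included when its mean over the 3 DMSO plates was at least 1000 CPM (its count divided by the library total and multiplied by 1000000) in each of UMSCC25, UMSCC8 and UMSCC1. Of 3177 shRNAs counted, 62 met this rule, which is 1.95% of them. These levels chose the shRNAs, so the DMSO values below are a description with no test.

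Each line was transduced with the MISSION TRC1 human kinome shRNA library, a lentiviral collection of short hairpin RNAs against kinases, and all cells were selected with puromycin. Plates then received DMSO (the vehicle), gefitinib, an inhibitor of EGFR, at 300 nM, or AZD8931, an inhibitor of EGFR, ErbB2 and ErbB3, at 30 nM. The agent was on for 72 hours, and the cells then recovered for another 72 hours. There were 3 plates per agent and line, which gave 27 libraries in 9 groups. Another field of the labels gives 1.0 μM for both agents, and the 2 agents were not compared at a matched dose. The transduced cells of a line were split over its 9 plates, but it is not stated if the dishes on which they were transduced were mixed first. The p-values therefore rest on a spread between plates of a group, pooled over all groups in a fit, that may be technical.

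In a pooled screen each cell carries an integrated shRNA cassette, and the count of a cassette in genomic DNA reports how common the cells with that shRNA are on the plate at harvest. The level of an shRNA depends on how much of its virus was in the pool, on how well the cassette is amplified and sequenced, and on growth and survival of the cells that carry it. A treated plate is set against a vehicle plate because the first influences are shared between them, so that an shRNA lower with the inhibitor is read as a loss of the cells that carry it and one that is higher as a gain. Synthetic lethal screens look for the former.

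Each shRNA is named by its TRC clone identifier. The deposited table does not pair identifiers with genes or with hairpin sequences, and neither is given here.

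Library totals ran from 178406 to 559422 counts, and a count of 0 allows up to 3 counts, or 5.36 CPM in the deepest library and 16.8 in the shallowest. The lowest count of any of the 62 shRNAs in any library was 42, so all of them were measured well above that floor. Some libraries stood apart. Plate 1 of AZD8931 in UMSCC1 had a Pearson correlation of 0.686 with the rest of the UMSCC1 libraries over the log levels of the 62 shRNAs (the median over libraries), where the others had 0.864 to 0.940, and 354 shRNAs were at 0 in it. Plate 2 of DMSO in UMSCC1 gave 41.2% of its counts to the 62 shRNAs, and plate 3 of gefitinib in UMSCC8 was the shallowest library. Plate 1 of DMSO in UMSCC8 had 328 shRNAs at 0 and a correlation of 0.737 over all shRNAs, but 0.937 over the 62.

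The 62 shRNAs took 25.0% to 41.2% of every library. In UMSCC25 their share of counts was 29.3% ± 0.451 (SD, n = 3 plates throughout) with DMSO, 30.0% ± 1.62 with gefitinib and 30.7% ± 0.605 with AZD8931. In UMSCC8 it was 29.0% ± 0.517 with DMSO, 30.8% ± 0.902 with gefitinib and 29.9% ± 0.909 with AZD8931. In UMSCC1 it was 34.1% ± 6.22 with DMSO, 29.9% ± 0.329 with gefitinib and 28.8% ± 3.40 with AZD8931. The 95% Wilson half-width of a share was 0.120 to 0.214 percentage points, which covers counting error only, since the amplified reads carry no molecular identifier and are not independent. The spread between plates was thus wider than counting error in every group.

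The shares with the inhibitors differed little from those with DMSO. In UMSCC25 the plates with AZD8931 (30.3% to 31.4%) lay above the plates with DMSO (28.8% to 29.7%), and the plates with gefitinib (28.4% to 31.6%) overlapped them. In UMSCC8 the plates with gefitinib (29.9% to 31.7%) lay above the plates with DMSO (28.4% to 29.3%), and those with AZD8931 (29.1% to 30.9%) overlapped them. The log2 ratio of the mean shares was 0.03 for gefitinib and 0.07 for AZD8931 in UMSCC25, and 0.09 and 0.04 in UMSCC8. In UMSCC1 the ratios were -0.19 for gefitinib and -0.24 for AZD8931, and they rested on DMSO plate 2. The 3 DMSO plates of that line held 29.8%, 41.2% and 31.2%. Without plate 2 the DMSO mean was 30.5%, and the ratios were -0.03 and -0.08. The 3 AZD8931 plates of UMSCC1 held 25.0%, 31.5% and 29.9%, and without plate 1 the mean was 30.7%. When the shRNAs were chosen on the DMSO plates of the other 2 lines only, so that a line's own DMSO values did not enter, the 6 ratios were 0.03, 0.06, 0.09, 0.04, -0.18 and -0.23 in the same order.

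Within the 62, a few shRNAs held about as many counts as all the rest. There were 5 shRNAs with a DMSO mean of at least 10000 CPM in every line, which are TRCN0000121186, TRCN0000000370, TRCN0000000366, TRCN0000000371 and TRCN0000121185. TRCN0000121185 passed this level in UMSCC1 through DMSO plate 2, without which its mean there was 8578 CPM. In UMSCC25 these 5 took 15.6% ± 0.740 of the counts with DMSO, 15.6% ± 2.14 with gefitinib and 17.0% ± 0.943 with AZD8931. In UMSCC8 they took 14.9% ± 0.840, 15.0% ± 0.932 and 14.8% ± 0.505. In UMSCC1 they took 20.5% ± 6.59, 15.8% ± 0.743 and 13.0% ± 4.73, from 7.71% on AZD8931 plate 1 to 28.0% on DMSO plate 2. The other 57 shRNAs together took 13.6% to 15.8% as group means. On single plates of UMSCC1 these 57 ran from 13.1% (DMSO plate 2) to 17.3% (AZD8931 plate 1). The wide range in UMSCC1 therefore lay mostly in the 5.

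The most abundant shRNA of every one of the 27 libraries was one of the 62. It was TRCN0000121186 in 22 libraries. In UMSCC1 it was TRCN0000000370 on DMSO plate 1 and AZD8931 plate 3, TRCN0000000366 on DMSO plate 2 with 14.0% of the counts, and TRCN0000000371 on AZD8931 plate 1 with 2.40%. In UMSCC8 it was TRCN0000000374 on gefitinib plate 3 with 5.21%.

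Below these 5 the levels ran from 10509 CPM (TRCN0000000374) downward. The geometric mean of an shRNA's 3 DMSO line means had a median of 1853 CPM over the 62 and ran from 1134 to 51599 CPM. The median over all shRNAs was 156 CPM in UMSCC25, 169 in UMSCC8 and 140 in UMSCC1. Within the 62 the order of levels was much alike in the lines, with a Spearman correlation of 0.80 between UMSCC25 and UMSCC8, 0.74 between UMSCC25 and UMSCC1 and 0.80 between UMSCC8 and UMSCC1 (n = 62 shRNAs, which share a library pool and a common minimum). The ratio of an shRNA's highest to its lowest line mean had a median of 1.40 and ran from 1.01 to 3.27. It was under 1.5 for 34 shRNAs and over 2 for 7. The highest line was UMSCC25 for 29 shRNAs, UMSCC1 for 23 and UMSCC8 for 10.

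The minimum of 1000 CPM did not fall at a gap in the levels. The last shRNA inside it was TRCN0000150645, at 1013 ± 134 CPM in UMSCC8, and the first outside was TRCN0000111603, at 987 ± 222 CPM in UMSCC1. In all, 12 of the 62 had a lowest line mean within 10% above the minimum, and 13 shRNAs lay within 10% below it. For both of these named shRNAs the SD between plates was wider than the distance from the minimum.

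The treated plates did not enter the rule, and most of the 62 stayed above the minimum on them. In all 6 treated groups 47 of the 62 (75.8%) had a mean of at least 1000 CPM, and only 2 other shRNAs did so, TRCN0000006141 and TRCN0000037679. On every single one of the 18 treated plates 31 of the 62 were at 1000 CPM or more. By group, the number of the 62 at 1000 CPM or more was 62 with gefitinib and 61 with AZD8931 in UMSCC25, 52 and 59 in UMSCC8, and 57 and 58 in UMSCC1. Other shRNAs at that level in the same groups numbered 67 and 47 in UMSCC25, 47 and 43 in UMSCC8, and 66 and 102 in UMSCC1. No group mean of the 62 was under 500 CPM. Their lowest single value on a treated plate was 102 CPM. Members of a list chosen by a minimum can only move out of it, so these counts are a description. Of the 62 highest shRNAs of a library, between 31 (AZD8931 plate 1 of UMSCC1) and 53 (DMSO plate 2 of UMSCC8) belonged to the 62.

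The abundant shRNAs were not spread evenly over the clone numbers, a property that the rule did not use. The numbers from TRCN0000090898 to TRCN0000121186 hold 51 of the shRNAs counted, and the next lower number in the table is 78727. Of these 51 shRNAs, 27 (52.9%) were among the 62, against 35 of the 3126 others (1.12%). The 51 are 1.61% of the shRNAs and took 12.4% to 19.2% of the counts of each library. Clone numbers in that range come in 11 runs of consecutive numbers, 9 of them of 5 shRNAs, and each of the 11 runs held at least 1 of the 62. The other 24 shRNAs of the range were higher by their median, though not one by one. With DMSO 20 of the 24 in UMSCC25, 22 in UMSCC8 and 20 in UMSCC1 were above the median of all shRNAs, and the lowest was at 5.06, 85.2 and 19.2 CPM. Their median was 725 CPM in UMSCC25, 868 in UMSCC8 and 401 in UMSCC1 with DMSO, where shRNAs outside the range and outside the 62 had 149, 163 and 134 CPM. On the treated plates the median of the 24 was between 342 CPM (AZD8931, UMSCC1) and 978 CPM (AZD8931, UMSCC8), and that of the others between 120 and 154 CPM. The bounds of this range were set after the levels had been seen, and these counts carry no test.

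Consecutive numbers often held several of the 62. An shRNA with the next lower or next higher number was also one of the 62 for 17 of them (27.4%), and 73 of the 3115 other shRNAs (2.34%) had such a neighbour. Most of the 17 lay in the range described above. Outside it only TRCN0000000370 and TRCN0000000371 were neighbours among the 62. Of the runs of consecutive numbers with any of the 62, 14 held at least 2, and these 14 held 38 of the 62. Most of these runs also lay in that range, so these counts largely restate it. The run with most was TRCN0000000365 to TRCN0000000378, in which 5 of 14 shRNAs belonged to the 62. The lowest of the other shRNAs in that run had a line mean of 27.7 CPM. The shRNAs next to one of the 62 had a DMSO median of 306 CPM in UMSCC25, 374 in UMSCC8 and 250 in UMSCC1, against 149, 163 and 133 CPM for the remaining shRNAs. Which of these shRNAs share a target gene is not given in the table.

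The change of single shRNAs was tested with edgeR's quasi-likelihood test in 1 fit per line over all shRNAs, with Benjamini-Hochberg adjustment and trimmed mean (TMM) scaling. Of the 3177 shRNAs, 3090 were tested in UMSCC25, 3118 in UMSCC8 and 3083 in UMSCC1, and all 62 were among them in each line. The DMSO plates chose the 62, so the comparisons with DMSO are not independent of the rule, and the counts that follow for them are descriptions. Gefitinib and AZD8931 were each set against the same DMSO plates.

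None of the 62 changed in any line with either inhibitor at an adjusted p of 0.05. This was also so for all shRNAs tested, with 0% called in each of the 6 comparisons with DMSO. The smallest adjusted p among the 62 was 0.235 with gefitinib and 0.159 with AZD8931 in UMSCC25, 0.171 and 0.569 in UMSCC8, and 1.00 and 0.424 in UMSCC1. At an unadjusted p under 0.05, gefitinib in UMSCC25 gave 1 of the 62 lower and 4 higher (7.51% of all shRNAs in either direction), and AZD8931 gave 3 lower and 4 higher (9.32%). In UMSCC8 gefitinib gave 8 lower and 8 higher (13.0%), and AZD8931 gave 3 lower and 3 higher (7.12%). In UMSCC1 gefitinib gave 3 lower and 1 higher (3.70%), and AZD8931 gave 2 lower and 6 higher (9.50%). Without DMSO plate 2 of UMSCC1, gefitinib gave 0 lower and 1 higher (72 of all 3077 shRNAs tested, in either direction). AZD8931 then gave 0 lower and 9 higher (309 of all 3077). DESeq2 called 1 of the 62 with each inhibitor in UMSCC25, 6 with gefitinib in UMSCC8, and 0 in the other 3 comparisons with DMSO. Of all shRNAs DESeq2 called 0.259% with each inhibitor in UMSCC25, 2.34% with gefitinib and 0.192% with AZD8931 in UMSCC8, and 0% with gefitinib and 0.778% with AZD8931 in UMSCC1. The call in UMSCC25 was TRCN0000000374 for both inhibitors, and the same shRNA was among the 6 in UMSCC8, of which 4 were higher and 2 lower.

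The log2 fold changes of the 62 lay in a narrower band than those of all shRNAs. Their median with gefitinib was 0.11 in UMSCC25, 0.08 in UMSCC8 and -0.15 in UMSCC1, beside medians over all shRNAs tested of -0.00, 0.01 and 0.01. With AZD8931 it was -0.01, 0.03 and 0.13, beside 0.00, 0.01 and -0.00. On the scale of total counts the medians of the 62 were 0.01, -0.00 and -0.10 with gefitinib and -0.07, -0.02 and 0.01 with AZD8931, beside -0.10, -0.07 and 0.06, and -0.06, -0.03 and -0.10, for all shRNAs. Total counts moved the median of all shRNAs by up to 0.10 in the comparisons with DMSO. With 1 plate left out the gefitinib median of the 62 was 0.18 in UMSCC25 (without gefitinib plate 1) and 0.01 and 0.02 in UMSCC8 (without gefitinib plates 1 and 2). In UMSCC1 it was 0.01 without DMSO plate 2 and -0.24 without DMSO plate 3, and the AZD8931 median was 0.02 without AZD8931 plate 1 and 0.20 without AZD8931 plate 2. The AZD8931 medians ran from -0.06 to 0.04 in UMSCC25 and from -0.02 to 0.10 in UMSCC8.

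The SD of the log2 fold changes over the 62 was 0.29 with gefitinib and 0.30 with AZD8931 in UMSCC25, 0.46 and 0.34 in UMSCC8, and 0.47 and 0.54 in UMSCC1. Over all shRNAs it was 0.76 and 0.81 in UMSCC25, 0.84 and 0.74 in UMSCC8, and 0.97 and 1.22 in UMSCC1. The 62 also varied less between plates of a group. Their median coefficient of variation was 10.3% on the DMSO plates of UMSCC25, 16.7% on those of UMSCC8 and 23.0% on those of UMSCC1, and that of all shRNAs was 25.5%, 36.7% and 45.0%. Counts of the 62 are higher, and how far this sets the difference was not tested.

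A difference of more than 2-fold from DMSO was rare among the 62. Gefitinib gave 1 higher and 0 lower in UMSCC25 (4.98% higher and 6.83% lower of all shRNAs), 1 higher and 1 lower in UMSCC8 (8.56% and 8.95%), and 1 higher and 2 lower in UMSCC1 (7.95% and 8.53%). AZD8931 gave 1 higher and 0 lower in UMSCC25 (7.86% and 6.02%), 0 in either direction in UMSCC8 (6.41% and 6.41%), and 1 higher and 3 lower in UMSCC1 (10.3% and 15.7%). In UMSCC1 TRCN0000000366 and TRCN0000121185 were lower with both inhibitors, and they held 139985 and 38583 CPM on DMSO plate 2, which stood apart. The third lower with AZD8931, TRCN0000104125, held 102 CPM on AZD8931 plate 1, which also stood apart. The 1 higher with AZD8931, TRCN0000095036, held 16457 CPM on that plate, against 5826 and 6009 on the others.

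For some shRNAs the 3 treated plates lay wholly above or wholly below the 3 DMSO plates in CPM. With gefitinib 3 of the 62 lay above and 5 below in UMSCC25 (5.18% and 9.61% of all shRNAs), 6 above and 10 below in UMSCC8 (6.45% and 11.2%), and 7 above and 4 below in UMSCC1 (6.58% and 5.03%). With AZD8931 5 lay above and 14 below in UMSCC25 (7.77% and 11.5%), 6 above and 10 below in UMSCC8 (6.48% and 9.08%), and 3 above and 0 below in UMSCC1 (5.16% and 6.71%).

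The folds of the 62 were more alike between UMSCC25 and UMSCC8 than between either and UMSCC1. With gefitinib the Spearman correlation of the log2 fold changes over the 62 was 0.51 between UMSCC25 and UMSCC8, 0.19 between UMSCC25 and UMSCC1 and 0.06 between UMSCC8 and UMSCC1. With AZD8931 these were 0.45, -0.16 and -0.11. Each line has its own DMSO plates, but the shRNAs were chosen on all of them, and the values are a description over 62 shRNAs. The folds in UMSCC1 were less precise, with a median SE over the 62 of 0.37, against 0.24 in UMSCC25 and UMSCC8. They also include DMSO plate 2 and AZD8931 plate 1, which stood apart. How far this lowers the correlations with UMSCC1 was not tested. With gefitinib 29 shRNAs were on the higher side and 17 on the lower side in both UMSCC25 and UMSCC8, and 16 had opposite signs. With AZD8931 21 were higher in both, 20 lower in both, and 21 had opposite signs. These signs are on the TMM scale, where 40 of the 62 were higher with gefitinib in UMSCC25 and 34 in UMSCC8. By total counts these were 32 and 31. With AZD8931 they were 29 and 34 on the TMM scale, and 23 and 29 by total counts. The correlations and signs are not given here over all shRNAs, so they cannot be read as particular to the 62.

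Over the 6 comparisons with DMSO, 6 of the 62 had a positive log2 fold change in all and 2 a negative one in all. The 2 shRNAs with the highest and the 2 with the lowest mean log2 fold change over the 6 are given here with their plates, together with the 3 of highest level.

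TRCN0000000374 had the highest mean, 0.77, and was above DMSO in 6 of 6 comparisons. In UMSCC25 its DMSO plates held 6156, 6229 and 6619 CPM, its gefitinib plates 11201, 11467 and 14059, and its AZD8931 plates 9680, 13234 and 14700. In UMSCC8 the DMSO plates held 20191, 21688 and 20214 CPM, the gefitinib plates 40961, 32028 and 52084, and the AZD8931 plates 29144, 41643 and 26942. In UMSCC1 the DMSO plates held 6661, 10756 and 9141 CPM, the gefitinib plates 10373, 11627 and 11246, and the AZD8931 plates 7725, 16833 and 10991. The treated plates of UMSCC25 and UMSCC8 all lay above the DMSO plates of their line, and in UMSCC1 the groups overlapped.

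The log2 fold change of TRCN0000000374 in UMSCC25 was 1.06 ± 0.21 (SE, adjusted p = 0.235, edgeR) with gefitinib and 1.04 ± 0.21 (adjusted p = 0.159, edgeR) with AZD8931. With DESeq2 the adjusted p was 0.000969 and 0.00262. In UMSCC8 it was 1.09 ± 0.22 (adjusted p = 0.171, edgeR) with gefitinib, with an adjusted p of 0.00348 from DESeq2, and 0.70 ± 0.22 (adjusted p = 0.569, edgeR) with AZD8931. In UMSCC1 it was 0.24 ± 0.35 and 0.46 ± 0.35, and with 1 plate left out from -0.02 (without DMSO plate 1) to 0.53 (without DMSO plate 2) and from 0.20 (without AZD8931 plate 2) to 0.76 (without DMSO plate 2). Among the 62 this shRNA also differed most between lines with DMSO, with a ratio of 3.27 between UMSCC8 and UMSCC25. AZD8931 against gefitinib gave -0.01 ± 0.21 in UMSCC25, -0.39 ± 0.22 in UMSCC8 and 0.23 ± 0.35 in UMSCC1 (adjusted p = 0.991, 0.992 and 0.805, edgeR).

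TRCN0000052575 had the second highest mean, 0.54, and was positive in 6 of 6 comparisons. Its difference was widest in UMSCC1, where the DMSO plates held 2322, 2017 and 2447 CPM, the gefitinib plates 4559, 5184 and 4916, and the AZD8931 plates 2984, 4294 and 4604. All 6 treated plates lay above the 3 DMSO plates, with log2 fold changes of 1.06 ± 0.32 and 0.90 ± 0.32 (adjusted p = 1.00 and 0.424, edgeR). In UMSCC25 the log2 fold changes were 0.42 ± 0.25 and 0.16 ± 0.25, and in UMSCC8 0.44 ± 0.22 and 0.27 ± 0.22. With 1 plate left out, the UMSCC25 values of TRCN0000052575 ran from 0.25 (without gefitinib plate 2) to 0.65 (without gefitinib plate 3) and from -0.04 (without AZD8931 plate 3) to 0.31 (without AZD8931 plate 1), and the UMSCC8 value for AZD8931 from 0.17 (without DMSO plate 1) to 0.45 (without DMSO plate 3).

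TRCN0000115280 had the lowest mean, -0.57, and was below DMSO in 6 of 6 comparisons. In UMSCC25 its DMSO plates held 2189, 2155 and 1665 CPM, its gefitinib plates 997, 1557 and 1703, and its AZD8931 plates 1511, 924 and 808. In UMSCC8 the DMSO plates held 2926, 2121 and 2227 CPM, the gefitinib plates 1388, 1879 and 1833, and the AZD8931 plates 2058, 1364 and 1898. In UMSCC1 the DMSO plates held 1211, 1101 and 822 CPM, the gefitinib plates 562, 414 and 685, and the AZD8931 plates 1147, 431 and 544.

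The gefitinib plates in UMSCC8 and UMSCC1 and the AZD8931 plates in UMSCC25 and UMSCC8 lay wholly below DMSO for this shRNA. Its log2 fold change was -0.39 ± 0.28 with gefitinib and -0.82 ± 0.28 with AZD8931 in UMSCC25, -0.44 ± 0.23 and -0.41 ± 0.23 in UMSCC8, and -0.99 ± 0.46 and -0.38 ± 0.45 in UMSCC1. The smallest of its 6 adjusted p was 0.398 (AZD8931, UMSCC25, edgeR). The last of these rested on single plates, at -1.12 without AZD8931 plate 1, the library that stood apart, -0.08 without AZD8931 plate 2, -0.23 without AZD8931 plate 3 or DMSO plate 2, and -0.63 without DMSO plate 3. In UMSCC25 the gefitinib value was -0.18 without gefitinib plate 1. In UMSCC8 the values were -0.25 and -0.23 without DMSO plate 1, and that for AZD8931 was -0.25 without AZD8931 plate 2. All of them stayed negative.

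TRCN0000000366, the third in level, had the second lowest mean, -0.46, which 1 plate set. In UMSCC1 its DMSO plates held 19997, 139985 and 26369 CPM, its gefitinib plates 16905, 20146 and 16455, and its AZD8931 plates 14492, 30748 and 19445. DMSO plate 2 was thus more than 4 times any other plate of the line. The log2 fold changes in UMSCC1 were -1.99 ± 0.58 with gefitinib and -1.59 ± 0.58 with AZD8931 (adjusted p = 1.00 and 0.424, edgeR), and without DMSO plate 2 they were -0.33 and 0.07. In the other lines it was at 0.06 ± 0.20 and 0.00 ± 0.20 (UMSCC25) and 0.69 ± 0.19 and 0.10 ± 0.19 (UMSCC8). In UMSCC8 its gefitinib plates, at 35753, 28523 and 43210 CPM, lay above its DMSO plates at 25095, 23276 and 22201. The adjusted p was 0.187 with edgeR and 0.0396 with DESeq2. The highest of these values was from gefitinib plate 3, the shallowest library.

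TRCN0000121186 was the highest in level. In UMSCC25 it held 49808, 53353 and 62185 CPM with DMSO, 77931, 47936 and 78716 with gefitinib, and 69777, 83211 and 72478 with AZD8931. In UMSCC8 it held 49726, 48329 and 62232 CPM with DMSO, 66734, 67983 and 37886 with gefitinib, and 66143, 67052 and 68891 with AZD8931. In UMSCC1 it held 41384, 36527 and 62044 CPM with DMSO, 66544, 56352 and 64837 with gefitinib, and 10597, 52276 and 47046 with AZD8931. The AZD8931 plates of UMSCC25 and UMSCC8 lay above DMSO, and AZD8931 plate 1 of UMSCC1 was far below all other plates.

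For TRCN0000121186 the log2 fold change was 0.41 ± 0.21 and 0.51 ± 0.21 in UMSCC25, 0.18 ± 0.21 and 0.38 ± 0.21 in UMSCC8, and 0.38 ± 0.41 and -0.31 ± 0.40 in UMSCC1, for gefitinib and AZD8931 in that order. Without AZD8931 plate 1 the last was 0.09, and with another UMSCC1 plate left out it was between -0.62 (without AZD8931 plate 2) and -0.12 (without DMSO plate 3). The gefitinib value was 0.62 in UMSCC25 without gefitinib plate 2 and 0.23 in UMSCC1 without DMSO plate 1. In UMSCC8 it was 0.05, 0.07 and 0.40 without gefitinib plate 1, 2 and 3, and 0.32 without DMSO plate 3. None passed the test, the smallest adjusted p being 0.496 (AZD8931, UMSCC25, edgeR).

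TRCN0000000370, second in level, was one of the 2 shRNAs below DMSO in all 6 comparisons. It held 29775, 32304 and 29500 CPM with DMSO in UMSCC25, 25833, 23797 and 15274 with gefitinib, and 20389, 21578 and 26885 with AZD8931, so that all treated plates lay below DMSO. In UMSCC8 it held 31387, 38433 and 43839 CPM with DMSO, 26143, 23802 and 32454 with gefitinib, and 29894, 31751 and 24961 with AZD8931. In UMSCC1 it held 64631, 45965 and 58793 CPM with DMSO, 51107, 54913 and 47170 with gefitinib, and 23356, 50766 and 47968 with AZD8931. Its log2 fold changes lay between -0.40 and -0.19, and the smallest adjusted p was 0.451 (gefitinib, UMSCC8, edgeR). For gefitinib the UMSCC25 value was -0.20 without gefitinib plate 3, the UMSCC8 value -0.25 without DMSO plate 3 and the UMSCC1 value -0.30 without gefitinib plate 2. For AZD8931 the UMSCC8 value was -0.23 without DMSO plate 3 and the UMSCC1 value -0.19 without AZD8931 plate 1.

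AZD8931 was also set against gefitinib, a comparison in which neither group chose the shRNAs. The doses differ 10-fold on the labels that give 300 nM and 30 nM, so it compares these treatments and not the agents at a like dose. None of the 62 passed an adjusted p of 0.05 in any line. Of all shRNAs 0% was called in UMSCC25 and UMSCC8 and 0.0324% in UMSCC1, which is 1 shRNA. The smallest adjusted p among the 62 was 0.462 in UMSCC25, 0.990 in UMSCC8 and 0.149 in UMSCC1. DESeq2 called 0 of the 62 in UMSCC25 and UMSCC8, where it called 0% of all shRNAs, and 1 in UMSCC1, where it called 2.82%. With 1 plate left out edgeR called 0 of the 62 in each line, but 48 of all shRNAs in UMSCC25 without gefitinib plate 1 and 46 in UMSCC1 without AZD8931 plate 2. In UMSCC1 it called 0 of all shRNAs without AZD8931 plate 3, gefitinib plate 1 or gefitinib plate 2.

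At an unadjusted p under 0.05, 2 of the 62 were lower with AZD8931 than with gefitinib and 0 higher in UMSCC25 (3.23% of the 62 and 8.06% of all shRNAs). In UMSCC8 5 were lower and 3 higher (12.9% and 4.97%), and in UMSCC1 4 were lower and 6 higher (16.1% and 14.4%). The AZD8931 plates lay wholly above the gefitinib plates for 1 of the 62 and wholly below for 4 in UMSCC25 (6.70% and 4.85% of all shRNAs). These counts were 6 and 4 in UMSCC8 (7.57% and 5.16%) and 10 and 5 in UMSCC1 (5.81% and 12.2%). A difference of more than 2-fold was found for 0 of the 62 in UMSCC25 and UMSCC8, where 9.45% and 4.07% of all shRNAs were higher and 4.92% and 4.07% lower. In UMSCC1 6 were higher and 2 lower, and 13.2% and 17.7% of all shRNAs were.

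The median log2 fold change of the 62 for AZD8931 over gefitinib was -0.13 in UMSCC25, 0.01 in UMSCC8 and 0.26 in UMSCC1, and that of all shRNAs -0.01, 0.00 and 0.04. By total counts it was -0.09, 0.04 and 0.09, beside 0.03, 0.03 and -0.10 for all shRNAs. Without AZD8931 plate 1 it was 0.11 in UMSCC1, where the median of all shRNAs was -0.04. With each plate left out in turn it ran from -0.17 (without gefitinib plate 1) to -0.07 (without AZD8931 plate 2) in UMSCC25, from -0.05 to 0.01 in UMSCC8 and from 0.11 to 0.33 in UMSCC1. The log2 fold changes over the 62 ran from -0.75 to 0.43 in UMSCC25, from -0.74 to 0.82 in UMSCC8 and from -1.53 to 1.57 in UMSCC1.

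The top of that range in UMSCC1 was TRCN0000103738, which also had the smallest adjusted p there and was picked after its values were seen. Its gefitinib plates held 2306, 2291 and 1620 CPM and its AZD8931 plates 7737, 5552 and 2427, with a log2 fold change of 1.57 ± 0.43 (adjusted p = 0.149 with edgeR and 0.0309 with DESeq2). The plates did not overlap, and the highest value was from AZD8931 plate 1, the library that stood apart. Without that plate the log2 fold change was 0.99 ± 0.34 (adjusted p = 0.345, edgeR). In UMSCC8 the log2 fold change of the same shRNA was -0.74 ± 0.33 (adjusted p = 0.990, edgeR). There its gefitinib plates held 2238, 2158 and 5415 CPM and its AZD8931 plates 2722, 1517 and 1799, so they overlapped. The highest of these was from gefitinib plate 3, the shallowest library.

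Whether an inhibitor's fold against DMSO differed between lines was tested for each shRNA in a fit of all 27 libraries, with 3135 shRNAs. None of the 62 passed an adjusted p of 0.05 in any of the 6 tests. Of all shRNAs 0.0638% (2 shRNAs) was called for AZD8931 between UMSCC1 and UMSCC25, and 0% in the other 5. DESeq2 also called 0 of the 62 in each of the 6. Of all shRNAs it called 2.04% for AZD8931 and 0.0638% for gefitinib between UMSCC1 and UMSCC25, 0.128% and 0.0957% between UMSCC1 and UMSCC8, and 0% for both between UMSCC8 and UMSCC25. The smallest adjusted p among the 62 was 0.117, for TRCN0000121185 and AZD8931 between UMSCC1 and UMSCC25. For that shRNA DMSO plate 2 of UMSCC1 held 38583 CPM, against 7295 and 9861 on the other DMSO plates. Counts at an unadjusted p under 0.05 (edgeR) follow, with the share of all shRNAs in either direction in brackets. The gefitinib fold was lower for 8 of the 62 and higher for 0 in UMSCC1 than in UMSCC25 (6.00%). These counts were 9 and 1 in UMSCC1 against UMSCC8 (8.10%), and 1 and 0 in UMSCC8 against UMSCC25 (4.88%). For AZD8931 they were 2 and 6 (12.3%), 5 and 5 (12.1%), and 1 and 1 (3.19%), in the same order. By direction, all shRNAs gave 134 lower and 54 higher, 139 and 115, and 81 and 72 for gefitinib. For AZD8931 all shRNAs gave 225 and 161, 221 and 157, and 45 and 55. DMSO plate 2 of UMSCC1 enters the tests of that line, which were not repeated without it. The DMSO plates that chose the 62 enter these tests, so the counts are a description.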

How the data were processed

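The authors deposited raw counts, whole numbers per shRNA clone and library, without normalization. The submitters' processing notes name Bowtie 1.0.0, edgeR and hg19, without their roles. The table has no column outside the 27 libraries (0 unmapped columns), and groups follow the line and agent in each label. The shRNAs, range bounds and lists were chosen with earlier results of these data known. CPM and shares were computed from the counts with pandas and scipy (95% Wilson intervals). Tests used edgeR 4.0.16 under R 4.3.3 (TMM, robust glmQLFit and glmQLFTest, at least 10 counts summed over the fit, 9 libraries of a line per fit, no replicate term), with Benjamini-Hochberg adjustment over all shRNAs tested. SEs were derived from the quasi-likelihood F. DESeq2 1.42.0, other scalings and filters, each plate left out in turn and other minimums were the alternatives. The fits were tested on simulated data. Named shRNAs are the 3 of highest DMSO level and the 2 highest and 2 lowest in mean log2 fold change over the 6 comparisons with DMSO; others were singled out after their values were seen. The counts of every replicate pair differed by more than sampling noise (reduced chi-square 6.21 to 43.1).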

Additional observations from a re-analysis of the deposited data

How the results depend on the processing

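With a minimum of 500 CPM 241 shRNAs qualified and with 2000 CPM 19, and 41 had at least 1000 CPM on every DMSO plate. TMM-scaled CPM gave 58, the median plate 60. Chosen after seeing the data, leaving out UMSCC1 DMSO plate 2 or UMSCC8 DMSO plate 1 alone gave 62, of which 61 and 60 were among the original 62. At 500 CPM the log2 ratio of shares was 0.0020 for AZD8931 in UMSCC25 and 0.0396 for gefitinib in UMSCC8, and at 2000 CPM 0.12 for the former. The other share ratios moved by less than the spread between plates. In UMSCC1 that spread includes DMSO plate 2, on which the ratios there rested, so it cannot show that they were stable. Among the 15 tests, DESeq2 called 1 of the 62 with gefitinib and 1 with AZD8931 in UMSCC25, 6 with gefitinib in UMSCC8 and 1 for AZD8931 against gefitinib in UMSCC1. A fit of only the 6 libraries compared called 1 with AZD8931 in UMSCC25, TRCN0000000374 (adjusted p = 0.00436, edgeR), and 18 of all shRNAs (0.585%), where 0 were called with the 9 libraries. Of all shRNAs DESeq2 called 8 and 8 with gefitinib and AZD8931 in UMSCC25, 73 and 6 in UMSCC8 and 0 and 24 in UMSCC1, where edgeR called 0, and 87 in place of 1 for AZD8931 against gefitinib in UMSCC1. The cause was not tested. The other 130 of 135 alternatives called 0 of the 62.

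No pairing of plates by their numbers was seen. Deviations of same-numbered plates correlated between -0.304 and 0.331, over 0.1 in 4 of 27 pairs, and those of plates with different numbers between -0.450 and 0.328. With the replicate block 0 of the 62 were called in each of the 15 tests, and of all shRNAs 0 in place of 1 for AZD8931 against gefitinib in UMSCC1 and 0 in place of 2 for AZD8931 between UMSCC1 and UMSCC25.

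In the edgeR fit of 9 libraries no log2 fold change of a named shRNA passed the test. Against DMSO 12 of 468 alternatives turned the direction, 8 of them for TRCN0000000366 in UMSCC25, where the values lay near 0, and the other 4 on leaving out 1 plate (TRCN0000052575 in UMSCC25 and TRCN0000000374, TRCN0000000366 and TRCN0000121186 in UMSCC1). For AZD8931 against gefitinib 18 of 234 did. For TRCN0000000374 in UMSCC25 the log2 fold change was 0.034 by total counts, 0.0005 with no filter beyond 1 count and 0.0010 in the fit of the 6 libraries compared. Leaving out 1 plate gave -0.11 to 0.24 in UMSCC25 and -0.025 to 0.33 in UMSCC8 for TRCN0000121186. It gave -0.13 to 0.18 in UMSCC25 and -0.074 to 0.18 in UMSCC8 for TRCN0000000370, and -0.19 to 0.058 in UMSCC25 for TRCN0000000366. For TRCN0000000374 it gave -0.13 to 0.14 in UMSCC25 and -0.040 to 0.37 in UMSCC1, and for TRCN0000115280 -0.10 to 0.17 in UMSCC8 and -0.13 to 0.91 in UMSCC1.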
